A study of Xenopus laevis with 20 samples.

Results

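The response described here is what arrays with high signal of an injected tracer had in common in 2 sets of African clawed frog (Xenopus laevis) whole embryos at stage 13, the early neurula. It consists of 26 probe sets of the 15491 gene probe sets on the array, of which 10435 passed a filter on low values and were fitted. Of the 26, 18 were lower and 8 were higher in arrays with high tracer signal. They name 18 gene copies. The lower ones include rax.L, pax6.L, six3.L, fezf2.L and foxd1.L of the eye field and forebrain and agr2.L, agr2.S, ag1.L and pitx1.L of the cement gland. Of the lower ones 3, foxd1.L among them, passed the filter only through tracer-low arrays, so their groups had to differ. The higher ones include satpb.L, nelfa.L, mknk2.S, ptafr.L, junb.L and tbxt.S. Of those named, six3.L, ag1.L, ptafr.L, junb.L and tbxt.S left the list in many fits without a single array. six3.L differed little in set 1.

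All 20 arrays were used, each holding RNA pooled from 3 embryos per the labels, although the series design text speaks of single embryos. Set 1 held 5 arrays labelled as injected with mRNA of Xrx1 (the homeobox gene now named rax) and controls 1 to 5, labelled uninjected. Set 2 held 5 arrays labelled as injected with MoXrx1, a morpholino antisense oligonucleotide against Xrx1, and controls 6 to 10, also labelled uninjected. Injected embryos received their agent together with mRNA of green fluorescent protein (GFP), the tracer, in both dorsal blastomeres at the 4-cell stage, and uninjected siblings were grown alongside. The stated amounts differ: 50 pg of Xrx1 mRNA and 400 pg of GFP mRNA in the sample labels against 50 ng and 400 ng in the design text, and 1 pM, 10 pg or 0.5 pmol of morpholino. None of the 20 arrays is labelled as GFP mRNA alone, so tracer, agent and injection cannot be told apart. The division into sets follows group and replicate number, and no label names it as a batch.

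Arrays were divided by a measured value, the log2 signal of the control probe set AFFX-Xl-M62653-1_s_at, taken here as the tracer because it was high in every array labelled as GFP-injected in set 1. A signal above 8 was called high. It was between 13.1 and 14.5 in mRNA arrays 1 to 5, against 3.04 to 3.32 in controls 1 to 5, so that in set 1 tracer and label gave the same division. In set 2 it was between 13.8 and 14.8 in the arrays labelled control 6, 7, 8 and 9 and morpholino 5, against 2.80 to 2.95 in those labelled control 10 and morpholino 1, 2, 3 and 4. Tracer and label thus disagreed for 8 of the 10 arrays of set 2. The other tracer probe set, AFFX-Xl-AF292560-1_s_at, gave the same division. It was at 13.5 to 14.4 in tracer-high and 2.81 to 3.56 in tracer-low arrays of set 1. In set 2 it was at 14.3 to 15.1 and 2.68 to 3.06. A further control probe set, named pd2EGFP, stood at 2.11 to 2.27 in all arrays. Arrays keep the names of their labels below, and no array is said to have received an agent because of its signal. By label none of the 26 probe sets was listed: the same fit with arrays labelled injected and uninjected listed 0 probe sets (limma, 704 at an unadjusted p under 0.05). By label the groups of set 1 stayed the same, while 8 of the 10 arrays of set 2 changed side. Members chosen for the same sign by tracer then tend to opposite signs by label, so nothing is read from this.

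At stage 13 the front end of the neural plate holds the eye field, a single band of cells that later divides into both eyes. It is marked by a set of transcription factors, rax, pax6 and six3 among them, which sustain each other's expression. Just in front of it, in ectoderm outside the neural plate, lies the primordium of the cement gland, a mucus-secreting organ with which the tadpole attaches itself. Both regions form under signals from the organizer, the dorsal tissue whose axial part expresses the T-box gene tbxt, also called brachyury. The endings .L and .S of a gene symbol name its 2 homeologous copies in this allotetraploid frog.

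The members were chosen with limma from the contrast of tracer-high minus tracer-low arrays with array set as a block. A member had an adjusted p under 0.05, over all probe sets fitted, and the same sign within each set. All 26 probe sets past that threshold had the same sign in both sets. Their adjusted p-values ran from 0.000332 for rax.L to 0.0475 for atp6v1b2.S, and they are given as the values of the choice, not as tests. The members made up 0.249% of the probe sets fitted (0.172% lower and 0.0767% higher). Same-number arrays of set 1 as pairs, with set 2 as 1 further block, listed 48 probe sets, 27 lower and 21 higher, and 25 of the 26 were among them. Leaving out 1 array at a time listed between 15 probe sets (without control 10) and 39 (without control 5). Listed in all 20 such fits were 15 members, those of rax.L, pax6.L, fezf2.L, foxd1.L, msi1.L, agr2.L, agr2.S, pitx1.L, nelfa.L, satpb.L and Xl.9076.1.S1_at. mknk2.S was listed in 18 of them, six3.L and rbpms2.L in 10, ptafr.L in 6, ag1.L and junb.L in 5, and tbxt.S and atp6v1b2.S in 4. These fits reuse the arrays that chose the members. foxd1.L passed the filter only through tracer-low arrays, so its groups had to differ in each fit. Differences below are log2 values, tracer high minus low, ± the SE of the fit, and levels are deposited log2 values.

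**Figure D1:**
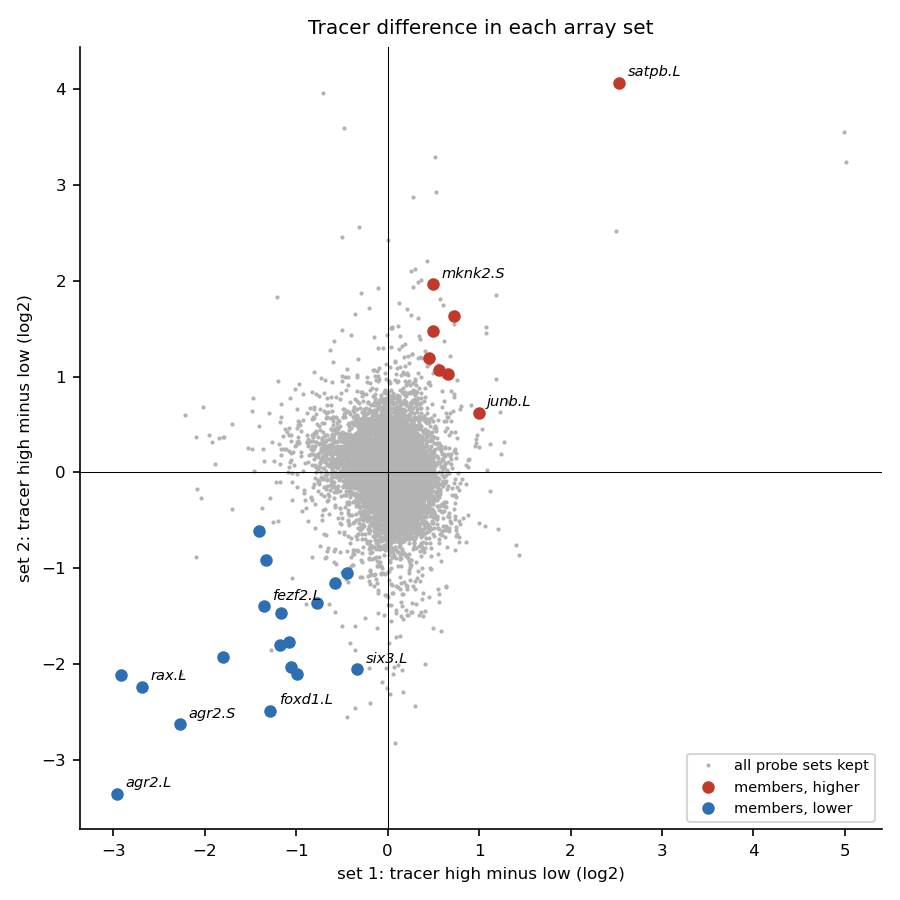
Log2 difference between tracer-high and tracer-low arrays in set 1 (horizontal axis) and set 2 (vertical axis) for 10435 probe sets (grey), with the 18 lower (blue) and 8 higher (red) members. The members lie in the quadrants where both sets have the same sign, while the grey points form no diagonal.

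Of the probe sets whose tracer groups were apart in 1 set, most were not apart in the other. Over the 10435 probe sets the differences of the 2 sets, which share no array, had a Pearson r of 0.00185 and a Spearman rho of -0.12, a description across probe sets that are not independent of each other. They had the same sign for 45.7% of probe sets. In set 1, 111 probe sets had tracer-high and tracer-low arrays that did not overlap (1.06%), and 46 of them (41.4%) had the same sign in set 2. In set 2, 592 did not overlap (5.67%), and 278 of them (47%) had the same sign in set 1. Without overlap in the same direction in both sets were 7 probe sets (0.0671%), 5 lower (0.0479%) and 2 higher (0.0192%), which is 6.31% of the set 1 list and 1.18% of the set 2 list, and 4 were without overlap in opposite directions (0.0383%). All 7 are members: rax.L, agr2.S, foxd1.L and the unnamed Xl.9076.1.S1_at and Xl.104.1.S1_s_at, all lower, and nelfa.L and junb.L, both higher. Of these, foxd1.L and Xl.104.1.S1_s_at passed the filter only through tracer-low arrays, as did the member Xl.9651.1.A1_at, so their groups had to differ.

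The eye field gene rax.L, a copy of the gene the study targeted and a homeobox regulator that eye formation depends on, was lower by 2.46 ± 0.29 on the log2 scale, a 5.51-fold difference. In set 1 it was at 4.00, 4.62, 5.09, 3.09 and 5.23 in mRNA arrays 1 to 5, against 6.93, 6.73, 8.38, 6.68 and 6.78 in controls 1 to 5. In set 2 it was at 5.01, 5.38, 3.78 and 4.76 in controls 6 to 9 and 3.73 in morpholino 5, against 6.61 in control 10 and 6.45, 6.46, 7.1 and 7.21 in morpholino 1 to 4. Every tracer-high array lay below every tracer-low array of both sets. In whole-embryo RNA, fewer cells expressing a gene and less RNA per cell cannot be told apart, here and for the members that follow. The 2 probe sets of rax.S were no members. One differed by 1.44 in set 1 and -0.86 in set 2, where its tracer-high mean was 3.14, under log2 4. The other differed by -1.37 and -0.37, with tracer-high means of 3.54 and 3.36, so these sizes are uncertain. Their tracer groups overlapped in both sets. Which of the 3 rax probe sets could detect the injected mRNA is not known here.

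The paired-box gene pax6.L, needed for eye development across vertebrates, was lower at 5 probe sets, which share 1 gene and are not separate findings. Its probe set with the highest level, Xl.647.7.S1_at, was at 8.79, 8.85, 9.55, 8.55 and 9.02 in mRNA arrays 1 to 5, against 9.50, 9.42, 10.39, 9.81 and 9.49 in controls 1 to 5. Controls 6 to 9 of set 2 were at 8.36, 8.2, 7.42 and 7.99 and morpholino 5 at 7.93, against 9.37 in control 10 and 9.39, 9.07, 9.16 and 9.71 in morpholino 1 to 4. The groups of set 2 were apart, while in set 1 the array mRNA 3 reached above 3 controls. Over the 5 probe sets the difference was between -0.77 and -1.18 in set 1 and between -1.36 and -2.1 in set 2. Another pax6.L probe set stayed under the filter, at a mean of 3.05.

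The homeobox gene six3.L, which acts beside rax and pax6 and keeps the forebrain anterior, was lower by 1.19 ± 0.24, with most of the difference in set 2. It was at 6.87, 7.27, 6.91, 6.89 and 7.44 in mRNA arrays 1 to 5, against 7.47, 7.42, 7.32, 7.24 and 7.60 in controls 1 to 5. The tracer-high arrays of set 2 had 4.61, 5.59, 4.11 and 4.19 (controls 6 to 9) and 4.44 (morpholino 5), against 6.72 in control 10 and 6.75, 6.44, 6.32 and 6.96 in morpholino 1 to 4. The set 1 groups overlapped and those of set 2 did not, with differences of -0.33 ± 0.22 and -2.05 ± 0.22. With same-number arrays as pairs six3.L was no longer listed. Its copy six3.S differed by -0.19 and -0.47 in the sets and was not listed (adjusted p = 0.383).

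The zinc finger gene fezf2.L, a forebrain regulator, had like differences in both sets. It was at 6.88, 6.68, 7.66, 6.12 and 6.37 in mRNA arrays 1 to 5, against 7.87, 8.04, 8.99, 7.21 and 8.36 in controls 1 to 5. Set 2 had 5.05, 6.24, 5.52 and 5.59 in controls 6 to 9 and 4.68 in morpholino 5, against 6.08 in control 10 and 6.59, 6.78, 7.45 and 7.13 in morpholino 1 to 4. The groups overlapped by 1 array in each set, and the differences were -1.35 ± 0.35 and -1.39 ± 0.35.

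The forkhead gene foxd1.L, known from the anterior neural plate and the later retina, lay near the lowest values of the table in tracer-high arrays. It was at 2.49, 2.37, 2.41, 2.26 and 2.55 in mRNA arrays 1 to 5, against 2.69, 4.05, 4.48, 4.09 and 3.19 in controls 1 to 5. For set 2 the values were 2.16, 3.56, 3.12 and 1.96 in controls 6 to 9 and 2.58 in morpholino 5, against 4.59 in control 10 and 5.68, 6.68, 3.87 and 4.97 in morpholino 1 to 4. The groups did not overlap in either set, but the gene passed the filter only through its tracer-low arrays, 7 of which were above log2 4 against 0 tracer-high arrays. Since a value this low may not be signal of the gene, the difference of -1.88 ± 0.32 has an uncertain size. The same holds for all 7 members with a group mean under log2 4: foxd1.L, pitx1.L, rbpms2.L and the members without a symbol. The other foxd1.L probe set stayed under the filter, at a mean of 1.88.

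msi1.L encodes an RNA-binding protein of neural progenitors and was lower by 0.75 ± 0.14. It ranged from 8.60 to 9.17 in tracer-high and from 9.14 to 9.50 in tracer-low arrays of set 1, and from 7.51 to 8.14 and from 8.21 to 9.14 in those of set 2. Its copy msi1.S was at -0.50 ± 0.20 (adjusted p = 0.427).

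**Figure D2:**
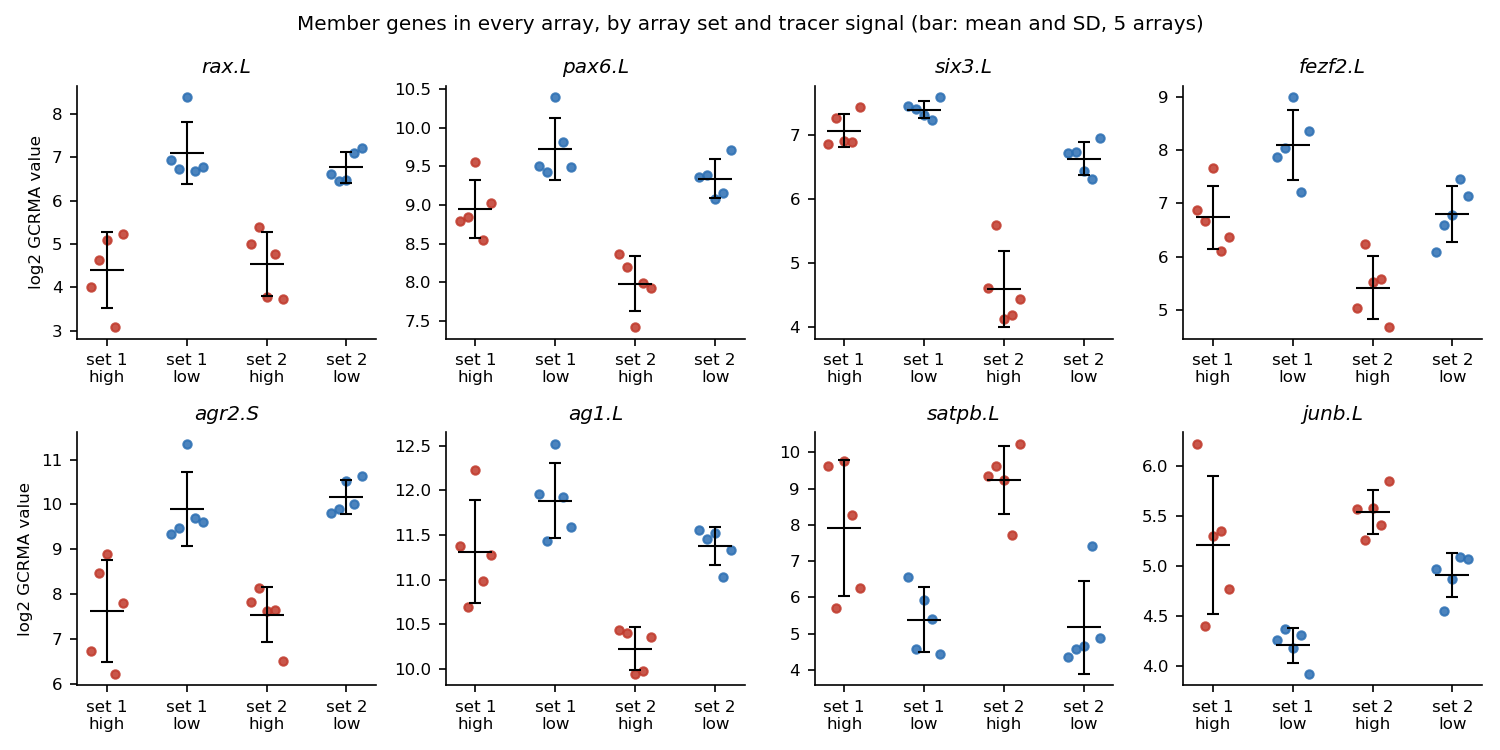
Deposited log2 values of 8 member genes in every array, in tracer-high (red) and tracer-low (blue) arrays of set 1 and set 2, with the mean and SD of 5 arrays. The pax6.L panel shows its probe set with the highest level; rax.L, agr2.S and junb.L do not overlap between tracer groups in either set.

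Of all lower members, the cement gland gene agr2.L differed most. agr2 encodes a secreted protein disulfide isomerase made by the cement gland. Its copy agr2.S was at 6.74, 8.48, 8.89, 6.24 and 7.80 in mRNA arrays 1 to 5, against 9.35, 9.49, 11.35, 9.70 and 9.62 in controls 1 to 5. In set 2 it was at 7.82, 8.15, 7.62 and 7.65 in controls 6 to 9 and 6.52 in morpholino 5, against 9.81 in control 10 and 9.89, 10.52, 10.01 and 10.64 in morpholino 1 to 4. The groups were apart in both sets, at -2.27 ± 0.46 and -2.62 ± 0.46. The other copy, agr2.L, differed by -3.15 ± 0.47 or 8.90-fold, with -2.96 in set 1 and -3.35 in set 2. It ranged from 4.77 to 9.36 in tracer-high and 9.32 to 11.91 in tracer-low arrays of set 1, where mRNA 3 lay just above the lowest control. Its set 2 values ranged from 5.82 to 7.94 in tracer-high and 9.84 to 11.01 in tracer-low arrays.

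The homeobox gene pitx1.L, expressed in the cement gland primordium, was at 4.13, 4.76, 6.15, 3.08 and 4.69 in mRNA arrays 1 to 5, against 6.89, 5.91, 7.58, 6.05 and 5.38 in controls 1 to 5. Controls 6 to 9 of set 2 were at 3.36, 4.25, 3.81 and 4.10 and morpholino 5 at 3.00, against 5.62 in control 10 and 5.70, 6.65, 5.05 and 5.11 in morpholino 1 to 4. Only mRNA 3 reached into the range of the tracer-low arrays of its set, and the differences were -1.80 ± 0.48 and -1.93 ± 0.48. The tracer-high mean of set 2, 3.70, was under log2 4, so the size of that difference is uncertain.

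The related secreted gene ag1.L, an abundant cement gland transcript, was lower by 0.86 ± 0.18. It ranged from 10.70 to 12.22 in tracer-high and 11.43 to 12.52 in tracer-low arrays of set 1, and from 9.95 to 10.44 and 11.04 to 11.56 in those of set 2. Both probe sets of ag1.S had differences of like size, -1.01 ± 0.26 (adjusted p = 0.117) and -1.13 ± 0.29 (adjusted p = 0.108), and were not listed.

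Lists of known genes place these members. Of the 11 eye field gene copies measured, 3 were members, all lower (rax.L, pax6.L and six3.L), 6 were lower in both sets and 0 were higher in both, and the median difference was -0.56. For all 5667 gene copies with a symbol, 0.176% were lower members, 20.6% were lower in both sets and the median was 0.00. The receptor gene fzd3.L was at -0.56 ± 0.13 (adjusted p = 0.0667). The T-box gene copies tbx2.L, tbx3.L and tbx3.S were at -0.05, -0.02 and -0.03, with opposite signs in the sets. In set 1 they were at -0.13, -0.25 and -0.28 and in set 2 at 0.04, 0.21 and 0.22. Of 9 cement gland and anterior border copies, 4 were members, all lower, with a median of -0.86. In both sets 6 copies were lower and 1 was higher, crx.S (0.04 in set 1 and 0.74 in set 2). In the same list crx.L was at -0.82 in set 1 and 0.84 in set 2, and the nucleotidase gene cant1.L at 0.00 and 0.01.

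Of 9 copies in the anterior neural plate and forebrain list, 1 was a member (fezf2.L), and the median was -0.57, with -1.05 in set 1 and 0.04 in set 2. In both sets 3 copies were higher: lhx5.S (0.11 in set 1 and 1.53 in set 2), sp5l.S (0.25 and 0.21) and sfrp1.L (0.18 and 0.04). Some head regulators with differences beyond 1 in set 1 were not members. The anterior homeobox repressor hesx1.L differed by -2.1 in set 1 and 0.37 in set 2, and hesx1.S by -2.09 and -0.88 (adjusted p = 0.1). The head gene otx2.L differed by -1.05 and -0.10 at its brighter probe set, and otx2.S by -1.79 and 0.37. Whether these differed between the sets was not tested.

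Lists for other parts of the neural plate and for signalling pathways held 0 members, against 0.318% of all copies, so nothing is read from it. Of 15 copies of neural plate and neural progenitor genes 0 were members, at a median of -0.05, and likewise of 12 posterior neural copies (0.19) and 24 neural crest and border copies (-0.09). The Wnt list (25 copies, median 0.02), the BMP and ventral list (26 copies, 0.04), the FGF list (15 copies, 0.12), the Notch list (15 copies, -0.02) and the retinoic acid list (14 copies, 0.11) held 0 as well. Of 72 ribosomal protein copies 30 were lower and 5 higher in both sets (41.7% and 6.94%, against 20.6% and 25.4% of all copies). Their median was -0.10, with -0.17 in set 1 and 0.01 in set 2, and none was a member.

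Markers of other tissues also differed between tracer groups in 1 set or the other, and their part in the members' values was not tested. In set 2 the neural crest markers (4 gene copies, 2 of them above log2 4 in all arrays) averaged 5.27 to 5.42 in tracer-high and 5.72 to 6.20 in tracer-low arrays, while in set 1 they overlapped (4.80 to 5.42 and 4.90 to 5.32). The endoderm markers (8 copies, 7 above log2 4 throughout) averaged 7.52 to 7.89 in tracer-high and 6.86 to 7.41 in tracer-low arrays of set 2 and overlapped in set 1 (7.25 to 7.73 and 7.19 to 7.83). The epidermal markers (4 of 4 above log2 4) overlapped in both sets, by little in set 1 (9.85 to 10.50 and 10.39 to 10.98), as did those of paraxial mesoderm (5 of 5; 9.60 to 10.41 and 8.77 to 9.76 in set 1). None of these lists held a member. The neural plate markers (7 of 7) averaged 8.88 to 9.50 over all arrays, so that markers of the main tissues of a whole embryo were present. Of 9 copies of blood and myeloid markers 1 was above log2 4 in all arrays.

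The genes with higher levels belong to no single list. satpb.L differed most, by 3.3 ± 0.55 or 9.84-fold. It was at 9.61, 5.70, 9.77, 8.26 and 6.25 in mRNA arrays 1 to 5, against 6.56, 4.58, 5.94, 5.41 and 4.44 in controls 1 to 5. The tracer-high arrays of set 2 had 9.36, 9.63, 9.24 and 7.71 (controls 6 to 9) and 10.23 (morpholino 5), against 4.34 in control 10 and 4.56, 4.66, 7.43 and 4.86 in morpholino 1 to 4. Arrays mRNA 2 and 5 lay within the range of the controls of their set, although each mRNA array was above the control of its own number, and morpholino 3 was far above the other tracer-low arrays of its own.

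nelfa.L encodes a subunit of the negative elongation factor, which pauses RNA polymerase II. It was at 7.88, 7.88, 8.25, 8.02 and 8.06 in mRNA arrays 1 to 5, against 7.66, 7.15, 7.60, 7.72 and 7.17 in controls 1 to 5. Set 2 had 9.35, 9.40, 9.27 and 9.0 in controls 6 to 9 and 9.51 in morpholino 5, against 8.53 in control 10 and 8.43, 7.92, 8.47 and 7.82 in morpholino 1 to 4. The groups did not overlap in either set, at 0.56 ± 0.16 and 1.07 ± 0.16. A further nelfa.L probe set was at 0.14 and 1.42 and was not listed (adjusted p = 0.138).

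The immediate early gene junb.L, a subunit of the AP-1 transcription factor, was at 6.22, 4.40, 5.30, 5.35 and 4.77 in mRNA arrays 1 to 5, against 4.26, 4.37, 4.18, 4.31 and 3.93 in controls 1 to 5. For set 2 the values were 5.58, 5.26, 5.58 and 5.41 in controls 6 to 9 and 5.85 in morpholino 5, against 4.98 in control 10 and 4.55, 4.88, 5.09 and 5.08 in morpholino 1 to 4. The groups did not overlap, though mRNA 2 lay just above the highest control. junb.L was the 1 member among 18 copies in the list of immediate early, wound and stress genes, whose median difference was 0.09. The early response gene egr1.L differed by 0.74 in set 1 and -0.07 in set 2. Of 14 copies in the p53 and apoptosis list and 10 in the innate immune and interferon list, 0 were members, at medians of 0.12 and 0.03.

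mknk2.S encodes a kinase that phosphorylates the translation initiation factor eIF4E. It was higher by 0.50 ± 0.24 in set 1 and 1.97 ± 0.24 in set 2. It ranged from 5.95 to 6.77 in tracer-high and 5.0 to 6.38 in tracer-low arrays of set 1, and from 7.06 to 7.46 and 4.84 to 5.62 in those of set 2. The copy mknk2.L was at 0.19 and 0.65 (adjusted p = 0.241) and the other mknk2.S probe set at 0.66 and 1.07 (adjusted p = 0.555).

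ptafr.L encodes the receptor for platelet-activating factor. It ranged from 9.58 to 11.10 in tracer-high and 9.24 to 10.32 in tracer-low arrays of set 1, and from 11.14 to 11.86 and 9.27 to 10.68 in those of set 2. rbpms2.L encodes an RNA-binding protein, also known as hermes, that is expressed in the forming heart. It ranged from 3.71 to 4.57 and 3.24 to 3.72 in set 1 and from 4.73 to 6.19 and 3.57 to 4.39 in set 2, tracer-high arrays first. Its set 1 means of 3.97 and 3.48 were under log2 4, which 7 tracer-high and 3 tracer-low arrays exceeded. Of the probe sets of its copy rbpms2.S, one was at 0.84 ± 0.23 (adjusted p = 0.135) and one at 0.10 ± 0.40. atp6v1b2.S encodes a subunit of the vacuolar proton pump, and only its dimmer probe set was a member (0.83 ± 0.17). The brighter one was at -0.02 ± 0.13.

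tbxt.S, the T-box gene of the notochord and posterior mesoderm, was higher by 0.84 ± 0.18. It was at 9.43, 9.77, 9.61, 10.12 and 10.17 in mRNA arrays 1 to 5, against 9.06, 9.64, 8.45, 8.88 and 9.78 in controls 1 to 5. In set 2 it was at 9.53, 9.67, 9.67 and 9.50 in controls 6 to 9 and 10.24 in morpholino 5, against 9.14 in control 10 and 8.44, 8.21, 8.51 and 9.16 in morpholino 1 to 4. The groups overlapped in set 1 and not in set 2. It was the 1 member among 16 organizer and axial mesoderm copies, whose median was 0.26, with -0.09 in set 1 and 0.49 in set 2, and 6 of which had opposite signs. The notochord homeobox gene not.L lay just outside the threshold at 0.77 ± 0.16. Its copy not.S differed by -0.19 in set 1 and 0.93 in set 2. Of the 16 copies 7 were higher and 3 lower in both sets, with shh.L among the lower (-0.35 and -1.85, adjusted p = 0.121). The head organizer gene gsc.L was at -1.20 in set 1 and -0.51 in set 2 (adjusted p = 0.222), and the secreted antagonist gene cer1.S at 0.26 and 2.1 (adjusted p = 0.184).

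The threshold falls within a gradual run of values. Just inside it lay tbxt.S, Xl.9651.1.A1_at (-1.01 ± 0.21) and atp6v1b2.S, with adjusted p-values of 0.0457, 0.0475 and 0.0475. Just outside lay not.L, acod1lb.L (4.12 ± 0.88) and nipal2.L (0.42 ± 0.09), with 0.0519, 0.0524 and 0.0563.

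The 4 members without a symbol were all lower. Xl.9076.1.S1_at was at 4.29, 3.65, 5.60, 2.82 and 3.38 in mRNA arrays 1 to 5, against 6.87, 7.11, 7.34, 6.25 and 6.76 in controls 1 to 5. Controls 6 to 9 of set 2 were at 4.68, 4.66, 3.01 and 5.48 and morpholino 5 at 4.04, against 6.01 in control 10 and 6.24, 6.77, 6.83 and 6.60 in morpholino 1 to 4. The groups of Xl.9076.1.S1_at did not overlap in either set, like those of rax.L, and the difference was -2.52 ± 0.32. Xl.104.1.S1_s_at was at -1.12 ± 0.20, Xl.20537.1.S1_at at -1.55 ± 0.31 and Xl.9651.1.A1_at at -1.01 ± 0.21. The gene tables name no gene for these 4.

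**Figure D3:**
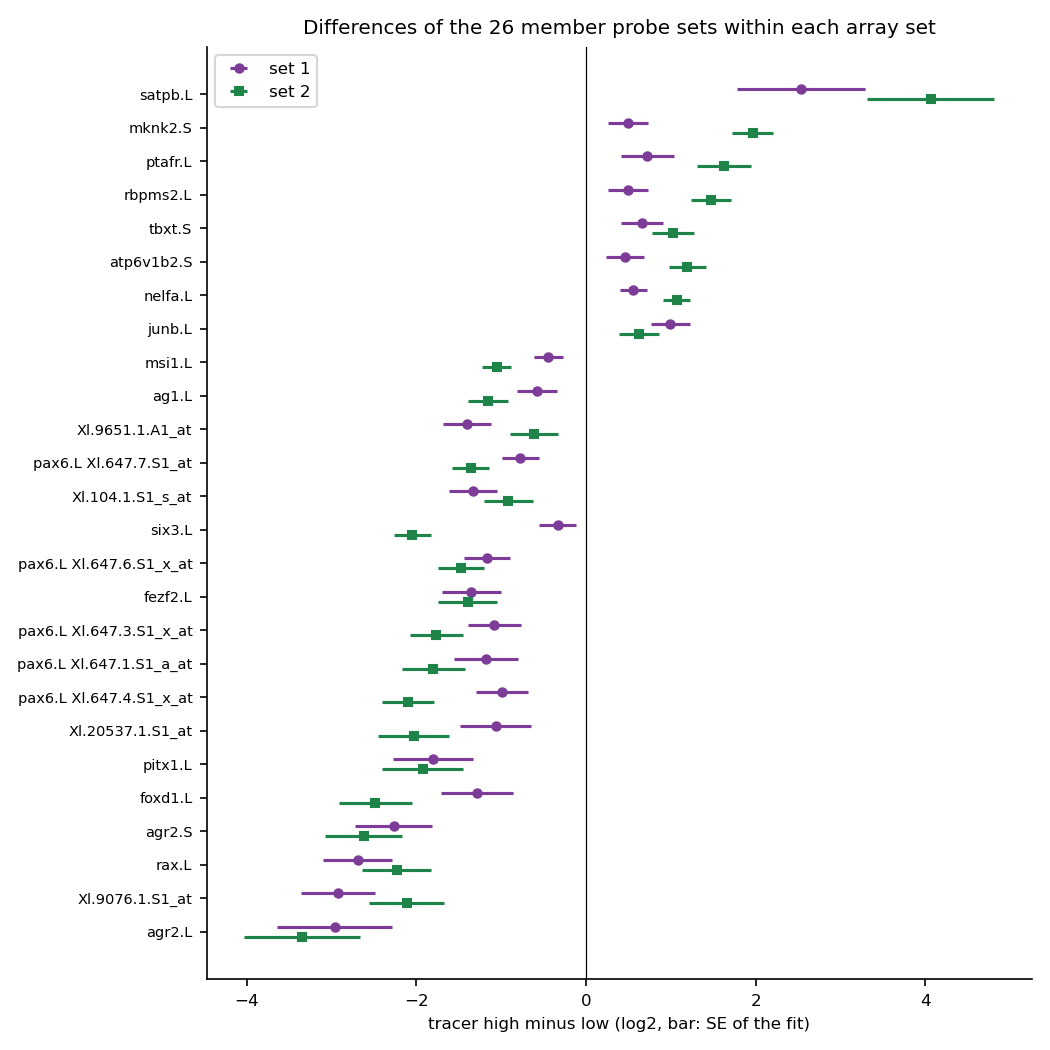
Log2 difference, tracer high minus low, of each of the 26 member probe sets within set 1 (purple circles) and set 2 (green squares), with the SE of the fit. In 21 of the 26 the difference was larger in size in set 2, six3.L being an example, while fezf2.L and pitx1.L had nearly the same value in both sets.

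The sizes within the sets were not equal. The median size over the members was 1.07 in set 1 and 1.70 in set 2, against 0.147 and 0.188 over all probe sets fitted. It was larger in set 2 for 14 of the 18 lower and 7 of the 8 higher members, and larger in set 1 for rax.L, junb.L, Xl.9076.1.S1_at, Xl.104.1.S1_s_at and Xl.9651.1.A1_at. The pax6.L probe sets, which share 1 gene, count separately here and below, and all were larger in set 2 and without overlap there. Without overlap were 24 members in set 2 and 7 in set 1, where the share over all probe sets fitted was 5.67% in set 2 and 1.06% in set 1. In set 1, 24 of the 26 had 1 sign in all 5 same-number pairs, satpb.L (1.12 to 3.84), six3.L, ag1.L, tbxt.S, mknk2.S and ptafr.L among them, against 13.5% of all probe sets fitted. The exceptions were rbpms2.L and atp6v1b2.S, with 4 of 5 pairs higher. These within-set values took part in the choice of members, so their difference was not tested.

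The level of a member in set 2 against set 1 is another contrast of the same fit. It shares its SE with the contrast that chose the members, so its calls are not independent of the choice. limma called 14 of the 26 between the sets, 6 higher and 8 lower in set 2 with 4 of the 8 from pax6.L, against a background of 42.6% of all probe sets fitted (26% higher and 16.6% lower), and nothing is read from the members' share. Lower in set 2 were pax6.L (-0.68 ± 0.16 at Xl.647.7.S1_at, adjusted p = 0.00239), six3.L (-1.63 ± 0.24, adjusted p = 2.44e-05), fezf2.L (-1.31 ± 0.24, adjusted p = 0.000224), ag1.L (-0.80 ± 0.18, adjusted p = 0.0012) and msi1.L (-0.78 ± 0.14, adjusted p = 0.000149). Higher in set 2 were nelfa.L (1.03 ± 0.13, adjusted p = 2.47e-06) and rbpms2.L (1.07 ± 0.20, adjusted p = 0.00022). rax.L (-0.10 ± 0.29, adjusted p = 0.798), agr2.S (0.10 ± 0.32, adjusted p = 0.825) and agr2.L (0.07 ± 0.47, adjusted p = 0.912) were not called. The median of each array over all probe sets was 5.80 to 5.88 in set 2 and 5.64 to 5.77 in set 1, and which arrays were normalized together is not stated, so set and normalization cannot be told apart.

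**Figure D4:**
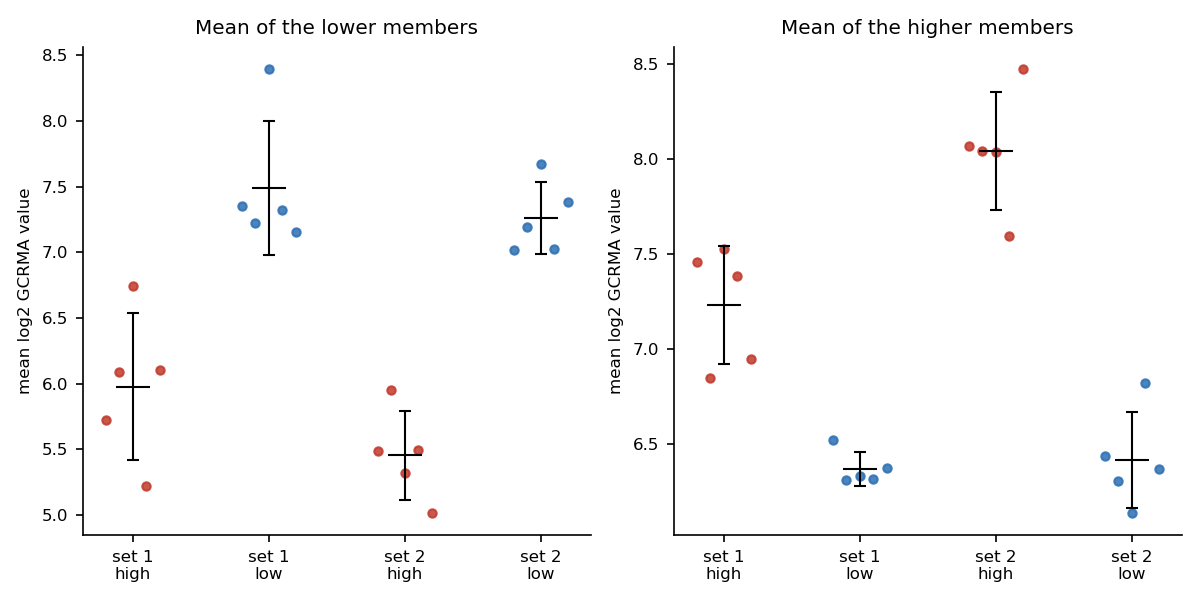
Mean log2 value of the lower members (left) and the higher members (right), 1 probe set for each gene, in every array, with the mean and SD of 5 arrays. Of the tracer-high arrays mRNA 3 has the highest mean of lower members (6.74), and of the tracer-low arrays control 3 does (8.39). These arrays share a replicate number.

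Arrays of 1 group differed in how far they were from the others, and many of the lower members shared this. Averaged over the lower members, the tracer-high arrays of set 1 lay between 5.22 (mRNA 4) and 6.74 (mRNA 3) and the tracer-low ones between 7.16 and 8.39 (control 3). In set 2 they lay between 5.01 (morpholino 5) and 5.95, against 7.02 and 7.67. After the 4 group means were removed, the median correlation over 20 arrays was 0.445 for 91 pairs of lower members (-0.381 to 0.966). It was 0.036 for 28 pairs of higher members (-0.542 to 0.830) and -0.001 for all pairs of probe sets fitted. Among the higher members, ptafr.L ran with satpb.L (0.830) and against mknk2.S (-0.542). The 6 pairs of cement gland members had a median of 0.699 (0.437 to 0.966) and the 10 pairs of eye field and forebrain members one of 0.248 (0.044 to 0.782). The highest of each were agr2.S with agr2.L, copies of the same gene, and pax6.L with rax.L. Between these groups 20 pairs had a median of 0.472 (0.047 to 0.826), the highest being agr2.S with rax.L. The 112 pairs of a lower with a higher member had a median of -0.099 (-0.764 to 0.465), with tbxt.S and pitx1.L at -0.614. Same-number pairing of set 1 was not removed, and mRNA 3 and control 3 share a number. The part of this pairing in the correlations was not tested. The correlations come from shared arrays and are given as a description.

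A measure of RNA quality, the mean 3 prime minus 5 prime difference of actin and Gapd control probe sets, was 2.68 ± 0.81 in tracer-high and 1.64 ± 1.27 in tracer-low arrays of set 1 (SD, n = 5 each; exact two-sided permutation p = 0.175, 0.233 after adjustment over 4 comparisons). In set 2 it was 0.82 ± 0.39 in tracer-high and 1.47 ± 0.57 in tracer-low arrays (SD, n = 5 each; exact two-sided permutation p = 0.0635, 0.19 adjusted), so that the sign was the opposite. The smallest exact p for 5 against 5 is 0.00794. With this measure as a covariate all 26 members were listed among 59 probe sets. The mean of bacterial control probe sets was 10.1 ± 0.2 and 9.91 ± 0.18 in tracer-high and tracer-low arrays of set 1 (exact permutation p = 0.0952, 0.19 adjusted) and 10.1 ± 0.4 and 10.0 ± 0.2 in those of set 2 (exact permutation p = 0.714). With it as a covariate 22 of the 26 were among 32 listed.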

How the data were processed

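The values are the authors' deposited log2 values, 1 for each of 15611 probe sets in each of 20 single-colour arrays. GCRMA made them, as the submitters' processing notes name it, and neither its version nor the grouping of arrays in it was given in the sources used here. The highest correlation of 2 arrays was 0.992. Tests left out 120 control probe sets, and a gene probe set was fitted if above 4 in at least 5 arrays. Of 15491 gene probe sets 9304 had 1 symbol in the platform annotation, 195 several and 5992 none. Only single symbols were used, 2 of them updated through a RefSeq gene table. No sequences were used.

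Differences were fitted with limma 3.58.1 in R 4.3.3 (lmFit, eBayes, Benjamini-Hochberg over all probe sets kept), with tracer and array set as terms, a step checked on simulated data. Within-set SEs came from a fit of 4 group means. Members with a symbol were named, up to 12 in each direction and up to 2 for each gene list, with all probe sets of rax; a gene of a list was represented by its brightest probe set. The members, the lists and the tests were chosen with earlier results of these data known. Nothing says which arrays came from separate parents, so a p-value covers only the spread among these arrays, and their number limits the precision. As deviations from their group means, mRNA arrays and controls of the same number correlated at 0.226 to 0.634 (5 of 5 pairs over 0.1), so the labels' numbers were taken to pair set 1. This pairing was used in the replicate block and the signs of same-number pairs only. The main fit, the within-set SEs and the permutation tests did not use it. The arrays labelled morpholino share no numbers with controls 6 to 10 and are not compared with controls 1 to 5, with which they share numbers (0.0593 to 0.281, 4 of 5 over 0.1). Alternatives were the grouping, block, filter, normalization, weights, covariates and each array left out.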

Additional observations from a re-analysis of the deposited data

Results flagged for a closer look

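In 11 of 104 groups of 5 arrays (26 member probe sets in 4 groups), 1 array lay far from the other 4 by Dixon's gap test, which chance alone gives in about 1 of 20 groups. The groups share arrays, and some share a gene, so they are not independent of each other. Of the 11 groups, 8 came from 2 tracer-low arrays. The array control 3 was high for rax.L (8.38, others 6.68 to 6.93), agr2.S (11.35, others 9.35 to 9.70), agr2.L (11.91, others 9.32 to 9.93) and Xl.104.1.S1_s_at (5.45, others 3.45 to 3.99). The array labelled morpholino 3 was low for msi1.L (8.21, others 8.95 to 9.14) and for pax6.L at Xl.647.3.S1_x_at (7.01, others 7.71 to 7.81) and Xl.647.1.S1_a_at (7.13, others 7.92 to 8.14), and high for satpb.L (7.43, others 4.34 to 4.86).

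The array labelled morpholino 5 was low for Xl.20537.1.S1_at among tracer-high arrays of set 2 (2.53, others 3.67 to 4.08) and high for tbxt.S (10.24, others 9.50 to 9.67). The array labelled morpholino 2 was high for Xl.20537.1.S1_at among the tracer-low ones (7.31, others 5.07 to 5.50).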

How the results depend on the processing

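The 26 probe sets (18 lower, 8 higher), the 7 without overlap, the 14 called between sets and the 26 with the same sign in both sets were recomputed under each alternative; the cause of a change was not tested unless given. By label limma listed 0 (0 lower, 0 higher; 704 at an unadjusted p under 0.05), 1 was without overlap, 6 members were called between sets and 0 had the same sign in both. By label the difference turned over, with adjusted p of 0.828 to 0.996, for pax6.L at Xl.647.7.S1_at (0.0057), nelfa.L (-0.0597), foxd1.L (0.20), msi1.L (0.12), mknk2.S (-0.33), rbpms2.L (-0.11), six3.L (0.40), ag1.L (0.0527), ptafr.L (-0.0586) and atp6v1b2.S (-0.0518). By label 8 arrays of set 2 changed side and those of set 1 did not. The members were chosen for the same sign by tracer, so their results by label were nearly fixed in advance. Leaving out the 8 arrays whose tracer and label disagreed, set 2 kept 1 array a group, assumed to vary like the rest. Set 1 stayed whole and had taken part in the choice of members, so a kept direction was nearly fixed in advance. Single arrays cannot overlap, so the count without overlap given next asked only for the same sign in set 2. That count is not comparable with the 7 of the full data, and nothing is read from it. limma then listed 0 (0 lower, 0 higher; 703 at an unadjusted p under 0.05), 54 did not overlap, 6 members were called between sets, and the 22 members fitted kept their direction. With the replicate block of set 1 pairs, 48 were listed, 21 higher, and six3.L was lost. No filter gave 5 higher (19 listed, 17 of them members). A mean above log2 6, with fewer probe sets fitted, gave 15 listed (10 lower, 5 higher), 2 without overlap, 9 between sets and 15 with the same sign. Array weights listed 73 (33 lower, 40 higher) and the RNA quality covariate 59 (31 lower, 28 higher; 9 between sets), with all 26 in each. A size of 0.5 in each set left 5 higher. The bacterial covariate, added after the data were seen, gave 15 higher. Quantile normalization and a variance trend left each count within 1.5 times. The other tracer probe set divided the arrays the same way, so its fit was the same.

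Leaving out each array in turn listed 15 to 39 probe sets (13 to 25 lower, 2 to 14 higher), with 6 to 20 without overlap, 10 to 14 between sets and 24 to 26 with the same sign. The total was 16 without control 6, 15 without control 10 and 16 without morpholino 4. The higher count was 2 without control 6 or 10, 3 without morpholino 4, 4 without control 4, 7 or 8 or morpholino 1 or 2, 5 without mRNA 4 or control 9, and 14 without control 5. Those without overlap were 20 without mRNA 3, 14 without control 1, 12 without control 5 and 11 without control 4 or mRNA 5. All 26 kept their sign, in fits that reuse the arrays that chose them. Called in all 20 fits were 15, and Xl.104.1.S1_s_at in the 15 that fitted it. Of these, foxd1.L and Xl.104.1.S1_s_at passed the filter only through tracer-low arrays. mknk2.S was lost without control 6 or 10. rbpms2.L was lost without control 3, 6, 7, 8 or 10, mRNA 4 or morpholino 1, 2, 3 or 4, Xl.20537.1.S1_at without control 3, 4, 6, 7, 8, 9 or 10, mRNA 4 or morpholino 1 or 4, and six3.L without control 6, 8, 9 or 10, mRNA 4 or any morpholino array. The others held in few such fits: ag1.L without control 2 or 5, mRNA 1 or 3 or morpholino 3; ptafr.L without control 1, 3 or 5, mRNA 2 or 5 or morpholino 3; junb.L without mRNA 1, 2 or 5, control 7 or morpholino 3; tbxt.S without control 2 or 5 or mRNA 1 or 3; atp6v1b2.S without control 2 or 5 or mRNA 1 or 4; and Xl.9651.1.A1_at without control 2 or 5, mRNA 3 or morpholino 1.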

Other observations

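Large differences in the same direction were also seen outside the list. Picked after their values were seen, 10 probe sets differed by more than 1 on the log2 scale the same way in both sets and did not pass the threshold, 6 higher and 4 lower in tracer-high arrays. acod1lb.L was at 11.91, 8.80, 10.91, 9.23 and 8.75 in mRNA arrays 1 to 5, against 3.70, 3.23, 9.64, 3.82 and 4.16 in controls 1 to 5. In set 2 it was at 11.93, 12.32, 11.64 and 12.16 in controls 6 to 9 and 12.44 in morpholino 5, against 9.77 in control 10 and 11.03, 4.89, 12.27 and 6.35 in morpholino 1 to 4. Every tracer-high array was at 8.75 or above, while tracer-low arrays ranged from 3.23 to 12.27, control 3 and morpholino 3 being the highest tracer-low arrays of their sets. phyhdlb.L was between 8.59 and 11.7 in tracer-high and 6.01 and 10.2 in tracer-low arrays of set 1, and at 11.39 or above in tracer-high and 6.69 to 12.39 in tracer-low arrays of set 2. As deviations from the 4 group means, acod1lb.L correlated with phyhdlb.L at 0.957 and with the member ptafr.L at 0.722 over the 20 arrays. Same-number pairing of set 1 was not removed from these values either.

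Below 0 in both sets without passing were nr2f2.L, a nuclear receptor gene (-1.27 in set 1 and -1.85 in set 2), the galectin gene lgals4.2.L (-2.26 and -2.10, with tracer-high means of 2.34 and 2.61 under log2 4) and xa-1.L (-1.09 and -2.05).

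Of 18 copies from a list of maternal and early zygotic genes 10 were higher and 1 was lower in both sets, with a median difference of 0.31, against 25.4% higher and 20.6% lower over all copies with a symbol. None was a member. The T-box gene vegt.L was at 0.72 ± 0.20 (adjusted p = 0.148) and vegt.S at 1.15 ± 0.36 (adjusted p = 0.229). The pluripotency gene pou5f3.3.L was at 1.57 ± 0.39 (adjusted p = 0.1), with differences of 0.27 within set 1 and 2.87 within set 2.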
